A study of Mus musculus with 29 samples.

Results

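Myc and the proteins that share its partner Max were followed through 2 mouse systems in which Myc activity was raised, B cells of Eμ-myc mice and fibroblasts carrying MycER. The genes were Myc, Mycn, Max, Mxd1, Mxd3, Mxd4, Mxi1, Mnt, Mga and Mlx, each taken by its symbol from the deposited expression tables. All 10 were found among the 21819 genes listed for B cells and among the 21675 listed for fibroblasts. Values are FPKM, fragments scaled to transcript length and to library size, and levels are set side by side between genes only within 1 system. The B cell and fibroblast files were read on separate scales and are not compared in level.

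Myc is a basic helix-loop-helix leucine zipper protein that binds DNA as a dimer with Max, mostly at the E-box CACGTG, and raises transcription of genes for ribosome production, nucleotide synthesis and cell division. Max has no activating domain of its own and also pairs with the Mxd proteins, Mxi1, Mnt and Mga, which occupy E-boxes without activating them. Mxd proteins, Mxi1 and Mnt recruit the Sin3 corepressor with its histone deacetylases, and Mga belongs to a Polycomb complex, PRC1.6. Mlx is a Max-like protein that pairs with the glucose-sensing factors Mlxip and Mlxipl as well as with Mxd1, Mxd4 and Mnt. Mycn is a Myc paralog best known from embryonic and neural tissue. In B cells Myc is switched on by antigen and growth signals, and chromosomal translocations that place it under immunoglobulin enhancers drive lymphoma.

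The E-box is also found in the promoters of some of these genes. RefSeq promoter windows of 300 bases, 250 before and 50 after the transcript start on GRCm38.p6, were at hand for 9 of the 10 genes, in 11 windows. CACGTG, which reads the same on both strands, was present once in the windows of 4 genes. Over all 32851 windows of the same length, 2349 (7.15%) held it. The windows with the E-box are shown because Max, Mxd4, Mnt and Mlx are themselves partners at this motif. Each is 30 bases, 5′ to 3′ on the gene's strand, with the E-box in capitals. Distances are to the transcript start used for the window. For Max, Mnt and Mlx the RefSeq gene begins at another base (76962323, 74830806 and 101086707), from which the distances would differ.
Max, chr12:76962234-76962263, minus strand, first base of the motif 3 bases before the start: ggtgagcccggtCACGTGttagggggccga
Mxd4, chr5:34187912-34187941, minus strand, 219 bases before: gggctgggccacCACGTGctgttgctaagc
Mnt, chr11:74830789-74830818, plus strand, 123 bases before: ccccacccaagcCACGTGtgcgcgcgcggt
Mlx, chr11:101087238-101087267, plus strand, 40 bases before: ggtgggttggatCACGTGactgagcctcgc
The related letters CACGCG, searched on both strands (CGCGTG on the other), occurred in 3045 windows (9.27%). Among the 11 windows of these genes only that of Mga held them, and it held no CACGTG that they could overlap. These matches describe the windows and say nothing on binding.

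RNA was sequenced in 29 libraries after removal of ribosomal RNA. Spleen B cells came from C57BL/6 mice aged 6 to 8 weeks and were enriched with B220 beads, from 4 wild-type libraries (replicates 1, 3, 4 and 6) and 4 libraries of Eμ-myc transgenic mice (replicates 2, 3, 4 and 5). Another 3 libraries (replicates 1 to 3) came from lymph node tumours of Eμ-myc mice, labelled as B cells and taken without further purification. The transgene places Myc under the immunoglobulin heavy chain enhancer, which is active in B cells. The fibroblasts were 3T9 cells made from E13.5 embryos of mixed strain, c-mycflox/flox and infected in vitro with MycER, a fusion of Myc with an estrogen receptor domain that 4-hydroxytamoxifen (OHT) activates. They received 400 nM OHT for 4, 8 or 16 h, with ethanol as the 0 h control, and 4 libraries of total RNA (replicates 1 to 4) at each time. Floxed Myc alleles and MycER were shared by all fibroblast groups, controls included, and the labels name no deletion. Newly made RNA was labelled with 300 µM 4-thiouridine (4sU) for 10 min in 1 library at 0 h and 1 at 4 h.

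No source says whether reads of the transgene or of MycER are counted in the row of Myc, so these and the endogenous transcript cannot be told apart there. Nothing in the labels says that replicates are separate animals or cultures, and p-values measure the spread between these libraries only. In bulk RNA, fewer cells of a type and less RNA per cell cannot be told apart. The 8 B cell markers summed to 42350 to 46670 FPKM in wild-type spleen, 25000 to 38790 in transgenic spleen and 4167 to 20850 in the tumours. Markers of other blood cell types also lay at lower ranges in transgenic than in wild-type spleen, overlapping for macrophages alone. T cell markers summed to 80.4 to 225.4 against 301.6 to 472.4 FPKM and NK cell markers to 43.6 to 331.2 against 345.2 to 657.1. Macrophage markers summed to 965.5 to 2636 against 2228 to 3965, and plasmacytoid dendritic cell markers to 48.4 to 80.3 against 82.1 to 282.2 FPKM. Erythroid markers summed to 32.5 to 51.6 against 56.1 to 181.1 FPKM, and to 270.3 to 367.0 FPKM in the tumours. Tumour replicate 3 stood apart, with low B cell markers and with Cd4 at 9468 FPKM against 135 and 145 FPKM in replicates 1 and 2. Siglech, a plasmacytoid dendritic cell gene, was at 2655 FPKM there and at 11.6 and 23.2 FPKM in the others. In all 3 tumours, 4 pancreas markers summed to 1087 to 5570 FPKM and 4 salivary gland markers to 1188 to 6827 FPKM, against at most 72.1 and 4.0 FPKM in wild-type spleen. The 8 fibroblast markers summed to 832.7 to 2264 FPKM in the tumours and to 105.3 to 210.8 FPKM in wild-type spleen. The part of these markers in the results was not tested, and tests of the tumours are given with and without replicate 3. In the fibroblasts the 8 fibroblast markers summed to 333.7 to 420.4 FPKM in total RNA. No gene of any fibroblast library exceeded 200.6 FPKM, while B cell files reached 986814 FPKM, and the 10 highest genes held 0.42 to 0.57% of the summed FPKM in fibroblasts against 19.65 to 42.84% in B cells. What set this narrow range is not given in the sources used here, so fibroblast levels, ratios and fold changes may be compressed, and the order of genes there rests on the values as deposited. Depth was estimated from the spacing of low values, as 824500 to 1472000 fragments in B cell files, 16950000 to 17180000 in fibroblast total RNA and 24290000 to 27750000 in 4sU files. The search ran only within a range set in advance for each system. No estimate could fall outside its range, so the gap in depth between the systems was not tested. The spacing was less regular in fibroblast total RNA (score 0.35 to 0.42, where 1 is perfect) than in B cell files (0.68 to 0.73). The fibroblast total RNA depths, nearly equal in all libraries, are thus less certain. On these estimates Myc rested on 437 to 7360 fragments per B cell library and on 316 to 1183 per fibroblast total RNA library. Such fragment counts take the longest transcript of each gene and may be too high.

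In wild-type spleen B cells, the network was led by a repressor of the Mxd family. Mxd4, the member associated with resting and differentiated cells, was at 585 ± 30.1 FPKM (SD, n = 4). Mga followed at 451 ± 34.4, Max at 321 ± 31.9 and Myc at 226 ± 34.7 FPKM, and the ranges of these 4 neighbours did not overlap. Mlx, at 187 ± 33.5 FPKM, overlapped with Myc and was below it in 3 of 4 libraries. Mnt was at 116 ± 26.1 FPKM and Mxd1 at 59.1 ± 6.04 FPKM. Mxi1 (29.8 ± 3.93 FPKM) and Mxd3 (28.9 ± 5.17 FPKM) overlapped, and Mycn was last at 2.95 ± 2.33 FPKM.

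**Figure D1:**
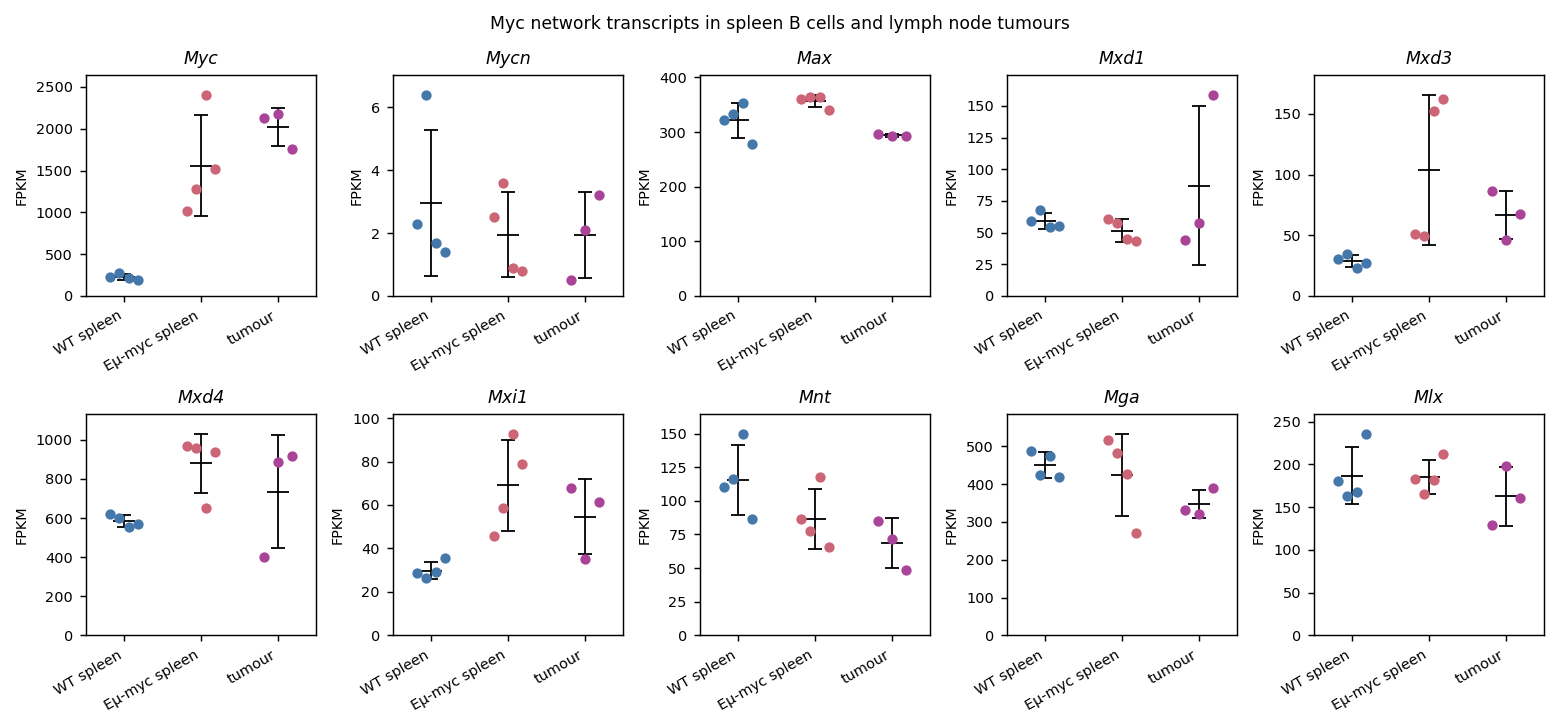
FPKM (linear axes from 0, each gene on its own scale) of the 10 network genes in 4 wild-type spleen, 4 Eμ-myc spleen and 3 lymph node tumour libraries, with points for libraries and bars for the mean ± SD. Myc, Mxd3, Mxd4 and Mxi1 were higher in every transgenic spleen library than in every wild-type one, while the 2 groups overlapped for Max, Mga and Mlx.

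The spleen comparison asks how the network differs in B cells that carry the Eμ-myc transgene. Myc, the activator, was at 227, 273, 215 and 191 FPKM in the wild-type libraries and at 1017, 1275, 2408 and 1525 FPKM in the transgenic ones. The lowest transgenic library was above the highest wild-type one, and the transgenic values spread more widely (SD 604 against 34.7 FPKM). Myc rose 6.87-fold (log2 fold change 2.72, SE 0.24, limma adjusted p = 0.000757). Of the 10 genes, 4 were called, all higher, against 27.9% of the 14021 genes tested in either direction and 15.7% in the higher direction. The groups did not overlap for these 4 genes, as for 31.6% of all genes tested. The median log2 difference over the 10 genes was 0.08, beside -0.05 over all genes tested.

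The paralog Mycn was at 2.3, 6.4, 1.7 and 1.4 FPKM in wild type and at 2.5, 3.6, 0.9 and 0.8 FPKM with the transgene, an estimated 1 to 14 fragments per library over the B cell files. No difference was called (log2 -0.46, 95% interval -1.67 to 0.74, limma adjusted p = 0.543), and the part of the low depth in this was not tested. Max, the obligate partner, was at 321, 332, 354 and 278 FPKM in wild type and at 361, 364, 363 and 339.9 FPKM with the transgene. The groups overlapped, and the log2 difference of 0.16 had an interval of -0.10 to 0.41 (limma adjusted p = 0.328).

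The repressors of the Mxd family differed among themselves. Mxd3, which is made in dividing cells during S phase, was at 30.7, 34.9, 22.7 and 27.3 FPKM in wild type and at 50.7, 49.5, 152.6 and 162 FPKM with the transgene. Transgenic replicates 4 and 5 were far above replicates 2 and 3, and all 4 were above wild type. Mxd3 rose 3.59-fold in mean FPKM (log2 1.62, SE 0.40, limma adjusted p = 0.0173). Without wild-type replicate 4 the call was lost (log2 1.51, adjusted p = 0.0552), and with libraries weighted by quality the difference was 0.83 (adjusted p = 0.0148). Aurka and Plk1, mitotic kinases, were also highest in transgenic replicates 4 and 5, Aurka at 388 and 323 FPKM against 95 and 157 FPKM in replicates 2 and 3, and Plk1 at 346 and 191 against 63.9 and 119 FPKM. Their part in the Mxd3 values was not tested.

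Mxi1, a relative of Mxd1 that also recruits Sin3, was at 28.6, 26.2, 29.1 and 35.4 FPKM in wild type and at 45.7, 58.4, 92.7 and 79.1 FPKM with the transgene. The groups did not overlap, and Mxi1 rose 2.31-fold (log2 1.15, SE 0.23, limma adjusted p = 0.00814). Mxd4 was at 619.9, 599, 552 and 569 FPKM in wild type and at 968, 957, 653 and 938 FPKM with the transgene. Replicate 4 lay below the other transgenic libraries but above every wild-type one, and Mxd4 rose 1.5-fold (log2 0.57, SE 0.15, limma adjusted p = 0.0238). This call was lost without any 1 of wild-type replicates 1, 3, 4 or 6 or transgenic replicates 3 or 5 (log2 0.52 to 0.60, adjusted p 0.0535 to 0.0672), after quantile normalization (0.40, adjusted p = 0.0978) and in a fit with the tumours (adjusted p = 0.137). Mxd1, a Mad protein raised as cells leave the cycle, was at 58.8, 67.7, 54.6 and 55.2 against 60.8, 57.4, 44.7 and 43.7 FPKM. Its groups overlapped and its log2 difference was -0.20 (interval -0.57 to 0.17).

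Mnt, the broadly expressed Max partner that opposes Myc, was at 111, 116, 149.8 and 86.6 FPKM in wild type and at 86.7, 77.4, 118 and 65.6 FPKM with the transgene. The groups overlapped and the difference did not pass (log2 -0.42, interval -0.90 to 0.06, limma adjusted p = 0.163), although it did with libraries weighted by quality (-0.52, adjusted p = 0.00771). Mga was at 487, 425, 474 and 418 FPKM against 517, 483, 427 and 272 FPKM (log2 -0.13, interval -0.56 to 0.31). Mlx was at 180.4, 163, 167 and 236 FPKM against 182, 165, 182 and 213 FPKM (log2 0.00, interval -0.33 to 0.33). The groups overlapped for both genes, although Mga in transgenic replicate 5 lay below every other spleen library.

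Spleen libraries of both genotypes also fell into pairs by Rpph1, the RNA of ribonuclease P, at 545353 to 735331 FPKM in wild-type replicates 1 and 3 and transgenic replicates 2 and 3, and at 153474 to 215865 FPKM in the other 4. Within the high and the low set, the log2 difference of Myc was 2.19 and 3.24, that of Mxd3 was 0.61 and 2.64, that of Mxi1 was 0.90 and 1.40, and that of Mxd4 was 0.66 and 0.48. For these 4 genes every transgenic library lay above every wild-type one, so the same direction in both sets followed from that and adds no support. The difference of Mga was 0.13 in the high set and -0.38 in the low set. With 2 against 2 libraries these are values without a test. Called members numbered 4 with log2 Rpph1 as a covariate. Of all 14021 genes tested, 2435 were then called higher and 1945 lower, against 2206 and 1712 without the covariate.

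Against the wild-type spleen, the lymph node tumours carried the highest mean Myc level of the 3 B cell groups. Tumours differed from both spleen groups in organ and purification too. In every comparison with the tumours, these cannot be told apart from tumour state. Myc stood at 2123, 2179 and 1759 FPKM in the tumours. Every tumour was above every wild-type library, and Myc rose 8.92-fold (log2 3.16, SE 0.17, limma adjusted p = 8.04e-05, and 3.26 with 1.88e-05 without tumour replicate 3). Called genes numbered 3 of 10, against 38.1% of the 14758 genes tested (20.3% higher, 17.7% lower). Without tumour replicate 3 they were 3 as well, with Mga in place of Mnt. Groups that did not overlap numbered 4 of 10, against 45.4% of all genes tested. The median log2 difference was 0.05 over the 10 genes and 0.05 over all genes.

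Among the antagonists in the tumours, Mxd3 was at 86.3, 46.2 and 67.6 FPKM. All were above wild type, and Mxd3 rose 2.31-fold (log2 1.16, SE 0.28, limma adjusted p = 0.0126, and 1.13 with 0.0173 without replicate 3). In a fit with transgenic spleen the call was lost (adjusted p = 0.0514). Mnt was at 85.2, 71.5 and 48.5 FPKM, all below the lowest wild-type library at 86.6 FPKM, and fell by 0.77 on the log2 scale (SE 0.26, limma adjusted p = 0.0452). The lowest value was that of replicate 3. This call was lost without wild-type replicate 1, 3 or 4 or tumour replicate 2 or 3 (log2 -0.54 without tumour replicate 3 to -0.82 without replicate 2, adjusted p 0.0771 to 0.112), with no filter on low values (adjusted p = 0.0543), without limma's trend and robust settings (adjusted p = 0.0622) and with libraries weighted by quality (-0.65, adjusted p = 0.0755). Mga, at 332, 320.1 and 389.6 FPKM, also lay below all wild-type libraries, yet its difference did not pass (log2 -0.38, interval -0.69 to -0.07, adjusted p = 0.0575). It did without tumour replicate 3 (-0.47, adjusted p = 0.0228), with median ratio scaling (-0.40, adjusted p = 0.0470) and with libraries weighted by quality (-0.44, adjusted p = 0.0458).

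Mxi1 in the tumours was at 67.6, 34.9 and 61.5 FPKM. Replicate 2 lay inside the wild-type range, the others above it, and the log2 difference was 0.82 (interval 0.17 to 1.46, limma adjusted p = 0.0509). It passed without replicate 2 (1.11, adjusted p = 0.0122) and did not without replicate 3 (0.70, adjusted p = 0.0891). It also passed with a 5 FPKM filter (adjusted p = 0.0484), a 10 FPKM filter with a pseudocount of 5 (0.0460), without limma's trend and robust settings (0.0486) and in a fit with transgenic spleen (0.0457). Mxd4 was at 399.9, 886 and 915 FPKM, with replicate 1 below and the others above every wild-type library (log2 0.23, interval -0.42 to 0.89). It passed without replicate 1 (0.62, adjusted p = 0.0164) and did not without replicate 3 (0.03, adjusted p = 0.948). Mxd1 was at 44, 57.9 and 159 FPKM. The high value was that of replicate 3, and the log2 difference was 0.33 with it and -0.22 without it (limma adjusted p = 0.551 and 0.417). Max (296, 293 and 292 FPKM), Mlx (129, 198 and 161 FPKM) and Mycn (0.5, 2.1 and 3.2 FPKM) overlapped with wild type, with intervals of -0.42 to 0.17, -0.66 to 0.25 and -1.96 to 0.96 in log2.

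Between the tumours and transgenic spleen, limma called 0 of the 10 genes, and 0 had an unadjusted p under 0.05, as 23.2% of all genes tested did. Without tumour replicate 3 limma also called 0. Over all 14692 genes tested 5.95% were called, 523 higher (3.56%) and 351 lower (2.39%), a split that became 362 and 374 with quantile normalization. Myc differed by 0.45 in log2 (interval -0.26 to 1.15) and all 3 tumours lay within the range of the transgenic spleens. Max was the gene whose groups did not overlap, at 292 to 296 against 339.9 to 364 FPKM (log2 -0.28, interval -0.62 to 0.06, limma adjusted p = 0.299), as for 22.4% of all genes. The median log2 difference was -0.27 over the 10 genes and 0.02 over all genes. Wild-type and transgenic spleen each serve as reference for the tumours, so these comparisons share libraries.

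**Figure D2:**
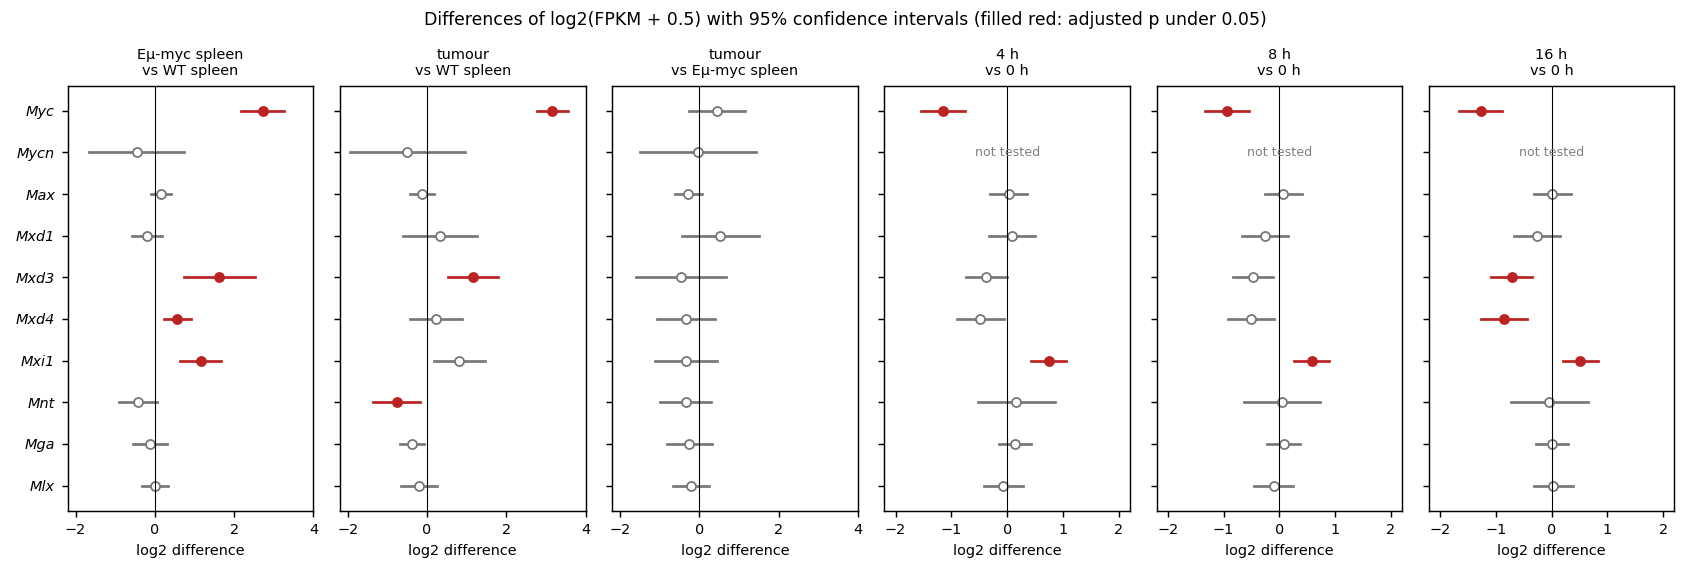
Log2 difference of FPKM + 0.5 (horizontal axis) with its 95% confidence interval for each network gene in 6 comparisons, filled red where the limma adjusted p was under 0.05. Myc is filled in 5 of the 6 panels, to the right in B cells and to the left in fibroblasts. The intervals of Max, Mlx and Mxd1 include 0 in all 6.

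Expressed within each library, the balance of the network shifted toward Myc in B cells with the transgene. Myc made up 11.3 ± 1.46% of the summed FPKM of the 10 genes in wild-type spleen (SD, n = 4), 40.9 ± 9.95% in transgenic spleen (n = 4) and 52.8 ± 7.00% in tumours (n = 3). The ratio of Myc to Max transcripts was 0.705 ± 0.0887, 4.36 ± 1.66 and 6.87 ± 0.756 in the same order, and wild type did not overlap with either other group. Transcripts of Mxd1, Mxd3, Mxd4 and Mxi1 together stood at 2.21 ± 0.257, 3.10 ± 0.410 and 3.21 ± 1.08 per Max transcript. Their sum was 659 to 738 FPKM in wild-type spleen and 943 to 1223 FPKM in transgenic spleen, without overlap, and 598 to 1203 FPKM in the tumours. Mxd4 supplied most of it. In level, Myc led the network in every transgenic spleen and tumour library, with Mxd4 next and no overlap between them, whereas Mga and Max overlapped in transgenic spleen. Mxd3, Mnt, Mxi1 and Mxd1 overlapped with their neighbours in the order in both transgenic groups. These ratios are of transcripts per length, not of proteins, and carry no test.

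**Figure D3:**
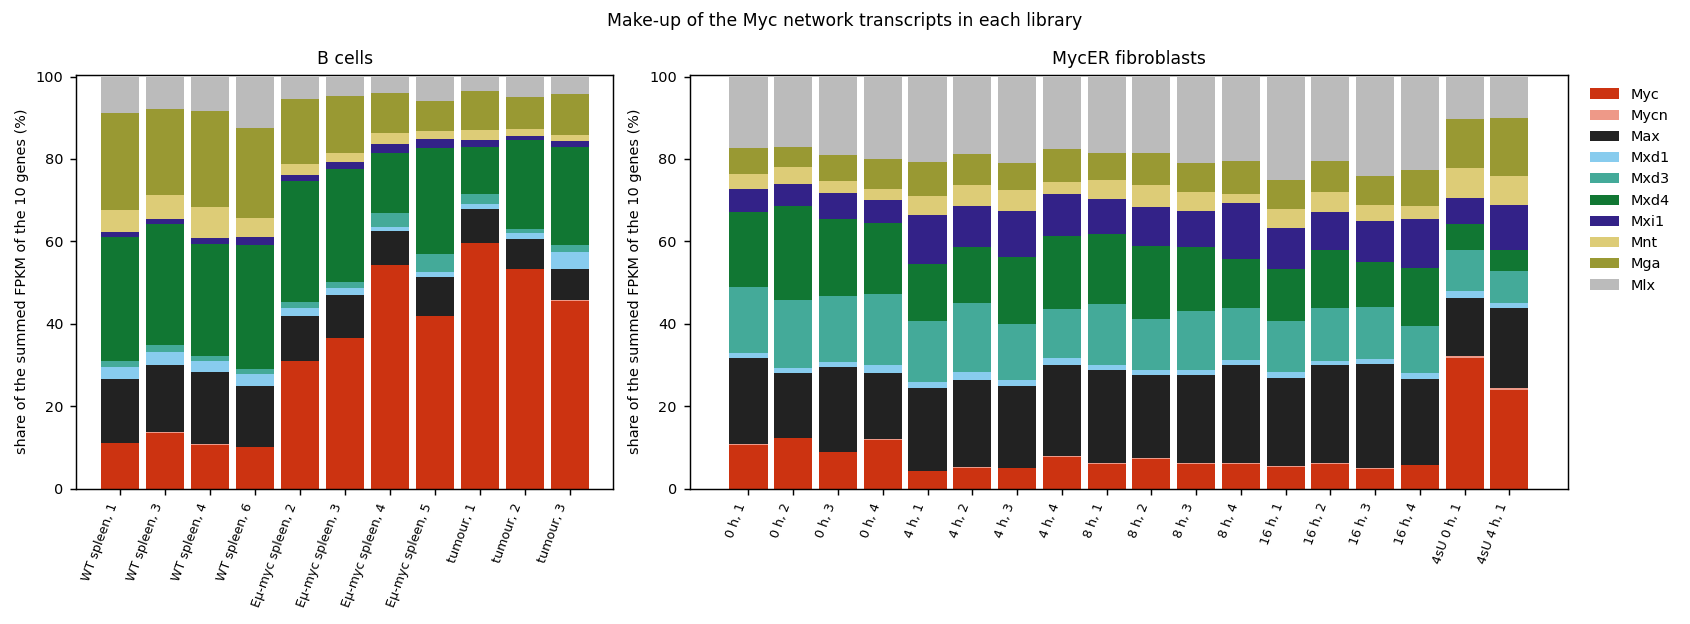
Share of the summed FPKM of the 10 network genes (percent, stacked to 100) in each of the 11 B cell libraries and 18 fibroblast libraries. The Myc segment is 10.1 to 13.4% in wild-type spleen and 30.9 to 59.6% in transgenic spleen and tumours, and in fibroblast total RNA it is 8.78 to 12.2% at 0 h and 4.17 to 7.72% after OHT.

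In the fibroblasts before OHT the 4 highest genes overlapped. Mxd4 was at 43.5 ± 8.94 FPKM, Max at 41.4 ± 7.62, Mlx at 41.1 ± 2.15 and Mxd3 at 37.0 ± 2.79 FPKM (SD, n = 4). Myc came next at 24.4 ± 3.98 FPKM, below all of these in range, and above Mga (13.8 ± 1.47 FPKM) and Mxi1 (12.8 ± 1.34 FPKM), which overlapped. Mnt (7.86 ± 2.37 FPKM) and Mxd1 (3.06 ± 0.506 FPKM) followed, and Mycn was at 0.317 to 0.559 FPKM over all 16 total RNA libraries. Mycn was under the 1 FPKM filter and was not tested in fibroblasts, so 9 genes were tested there.

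**Figure D4:**
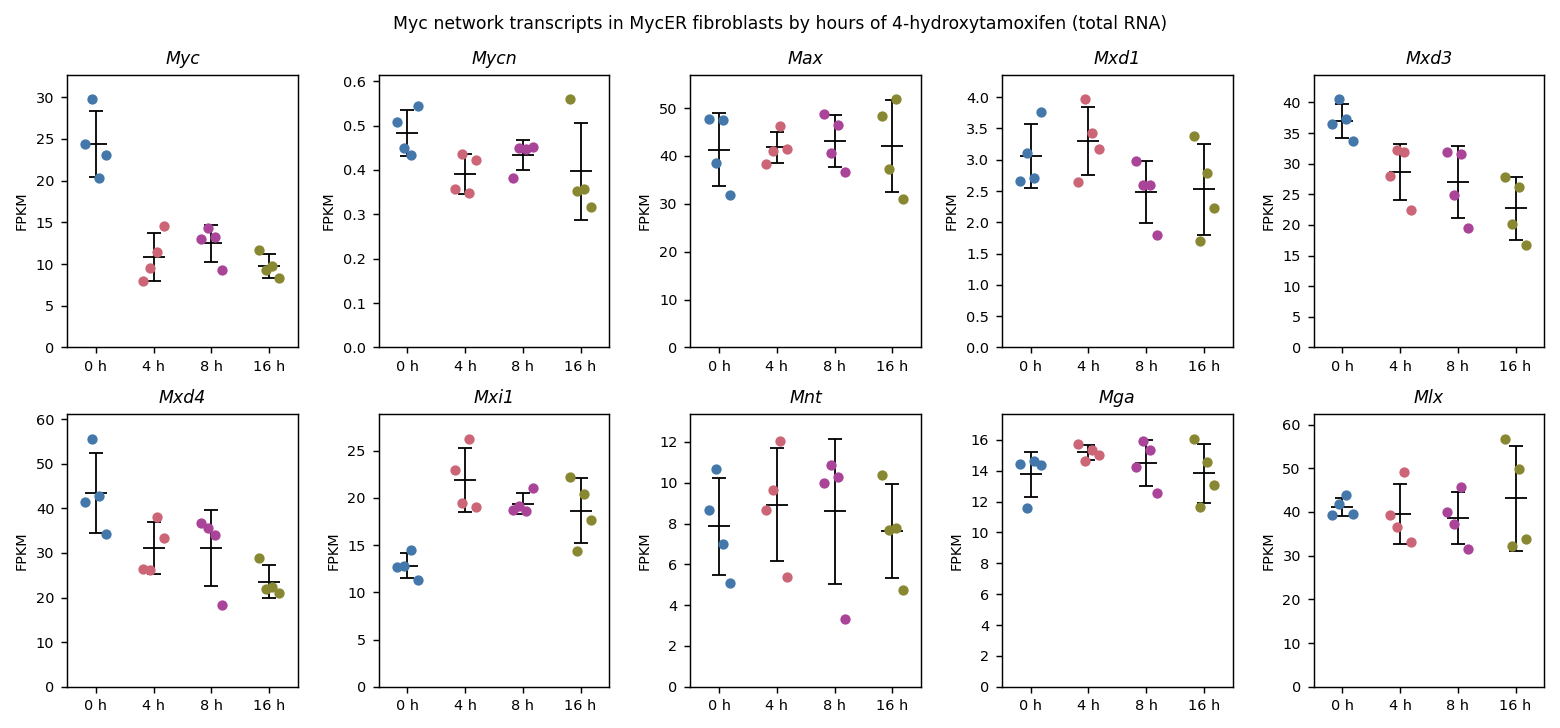
FPKM (linear axes from 0, each gene on its own scale) of the 10 network genes in fibroblast total RNA at 0, 4, 8 and 16 h of 400 nM OHT, with points for the 4 libraries of each time and bars for the mean ± SD. Every library after OHT is below every 0 h library for Myc and Mxd3, and Mxi1 is above all 0 h libraries at 4 and 8 h.

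The OHT series asks how activating MycER alters the network over time, with the 0 h libraries shared by the 3 comparisons. Myc was at 24.4, 29.7, 20.3 and 23.0 FPKM at 0 h. It was at 7.92, 9.51, 11.4 and 14.5 FPKM at 4 h, at 13.1, 14.3, 13.3 and 9.30 FPKM at 8 h, and at 11.7, 9.31, 9.78 and 8.35 FPKM at 16 h. Every library after OHT was below every library before it. On the log2 scale Myc fell by 1.15 at 4 h (SE 0.19, limma adjusted p = 0.000875), by 0.94 at 8 h (adjusted p = 0.00811) and by 1.27 at 16 h (adjusted p = 0.000239). Whether the transcript measured is endogenous Myc, MycER or both cannot be told apart.

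Called network genes numbered 2 of 9 at 4 h, 1 in each direction, against 4.78% of the 12934 genes tested (1.9% higher, 2.88% lower). At 8 h they were again 2 of 9, 1 in each direction, against 2.19% (1.21% higher, 0.982% lower). At 16 h they were 4 of 9, 1 higher and 3 lower, against 9.51% (1.76% higher, 7.75% lower). Groups did not overlap for 3 of the 9 at each time, against 12.5%, 13% and 13.8% of all genes. The median log2 difference was 0.03, -0.10 and -0.04 over the 9 genes, and -0.04, -0.06 and -0.14 over all genes. Scaling the libraries by median ratios moved the median of all genes at 16 h from -0.14 to 0.05. The genes called higher and lower went from 228 and 1002 to 977 and 937 at 16 h and from 246 and 372 to 737 and 712 at 4 h, and to 1022 and 1032 and to 888 and 892 with quantile normalization. The network genes called at 4 and 16 h held their direction and call under both scalings.

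Mxi1 was the network repressor that rose. It was at 12.7, 12.8, 14.5 and 11.3 FPKM at 0 h, at 23.0, 19.4, 26.3 and 19.1 FPKM at 4 h, at 18.7, 19.1, 18.7 and 21.1 FPKM at 8 h, and at 22.2, 14.4, 20.5 and 17.6 FPKM at 16 h. All libraries at 4 and 8 h were above all at 0 h, and at 16 h replicate 2 lay within the 0 h range. Mxi1 rose 1.71-fold at 4 h (log2 0.75, SE 0.15, limma adjusted p = 0.00542), 1.51-fold at 8 h (0.58, adjusted p = 0.0435) and 1.46-fold at 16 h (0.51, adjusted p = 0.0346). At 8 h the call was lost without any 1 of the 8 libraries of 0 and 8 h, or 4 h replicate 1 or 2, or 16 h replicate 3 (log2 0.53 to 0.64, adjusted p 0.0537 to 0.135), without replicate 4 of every time (0.49, adjusted p = 0.161) and with no filter (adjusted p = 0.0676). At 16 h it was lost without 0 h replicate 1, 2 or 4 or 16 h replicate 1, 3 or 4 (log2 0.43 to 0.53, adjusted p 0.0627 to 0.102), without replicate 4 of every time (0.48, adjusted p = 0.0978), with no filter (adjusted p = 0.0525) and in a fit of 0 and 16 h alone (adjusted p = 0.0949). At 4 h it held in all 28 alternatives.

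Mxd3 and Mxd4 moved the other way. Mxd3 was at 36.5, 40.5, 37.2 and 33.7 FPKM at 0 h and at 27.9, 20.1, 26.1 and 16.8 FPKM at 16 h. All 16 h libraries were below all 0 h libraries, and Mxd3 fell by 0.72 on the log2 scale (SE 0.18, limma adjusted p = 0.0128). Without 16 h replicate 4 the call was lost (-0.58, adjusted p = 0.0542). At 4 h (28.0, 32.3, 31.951 and 22.5 FPKM) and 8 h (31.978, 24.9, 31.5 and 19.5 FPKM) it also lay below the 0 h range, with log2 differences of -0.37 and -0.47 that did not pass (adjusted p = 0.288 and 0.204). At 8 h it passed with median ratio scaling (-0.37, adjusted p = 0.0405) and with quantile normalization (-0.43, adjusted p = 0.0246).

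Mxd4 was at 41.5, 55.6, 42.7 and 34.1 FPKM at 0 h and at 29.0, 21.9, 22.3 and 21.1 FPKM at 16 h. The groups did not overlap, and Mxd4 fell by 0.86 (SE 0.20, limma adjusted p = 0.00868). In the 28 alternatives its value ran from -0.97 to -0.66 and the call held. Its differences at 4 h (26.4, 26.1, 38.1 and 33.4 FPKM, log2 -0.48) and 8 h (36.7, 35.5, 34.0 and 18.3 FPKM, log2 -0.51) did not pass (adjusted p = 0.212 and 0.242), and both groups overlapped with 0 h. At 4 h it passed without replicate 4 of every time (-0.63, adjusted p = 0.0122), with quantile normalization (-0.45, adjusted p = 0.0450) and with libraries weighted by quality (-0.62, adjusted p = 0.00130).

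The remaining genes gave no call at any time. Max was at 47.6, 38.4, 47.4 and 31.9 FPKM at 0 h and at 48.3, 37.2, 51.8 and 31.1 FPKM at 16 h. Its log2 differences were 0.03, 0.07 and 0.02 at 4, 8 and 16 h, and the 95% intervals ran from -0.31 to 0.40. Mlx differed by -0.07, -0.10 and 0.03 (intervals from -0.45 to 0.38) and Mga by 0.14, 0.08 and 0.00 (from -0.29 to 0.43). Mxd1, at 1.71 to 3.97 FPKM over the 16 libraries, differed by 0.09, -0.26 and -0.26 (from -0.67 to 0.51). Mnt had the widest intervals, from -0.72 to 0.85. It was lowest in replicate 4 at every time, at 5.11, 5.37, 3.30 and 4.74 FPKM, while the other libraries lay between 6.99 and 12.0 FPKM.

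Between 16 and 4 h limma called 0 of the 9 genes and 0 of all 12934. Unadjusted p was under 0.05 for 0 of the 9 and for 218 of all genes. With replicate 4 of every time left out, 2 of all genes were called, both lower. Groups did not overlap for 0 of the 9, against 0.387% of all genes. The median over all genes was -0.11, and 0.01 with median ratio scaling. Mxd3 (-0.34, interval -0.71 to 0.02), Mxd4 (-0.38, -0.80 to 0.03) and Mxd1 (-0.35, -0.76 to 0.06) had the largest log2 differences of the 9, and Myc differed by -0.12 (-0.51 to 0.27).

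The ratio of Myc to Max transcripts in the fibroblasts was 0.609 ± 0.166 at 0 h, 0.259 ± 0.0632 at 4 h, 0.290 ± 0.0434 at 8 h and 0.238 ± 0.0344 at 16 h (SD, n = 4 each). The lowest 0 h ratio, 0.427, was above the highest after OHT, 0.352. Mxd and Mxi1 transcripts per Max transcript were 2.38 ± 0.455 at 0 h and 1.63 ± 0.203 at 16 h, and the 0 h libraries (1.96 to 2.92) lay above the 16 h libraries (1.38 to 1.86). Within that sum Mxi1 and Mxd4 shifted against each other, Mxi1 from 5.69% to 10.2% and Mxd4 from 19.2% to 12.9% of the 10-gene total.

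Nascent RNA had 1 library per time, so its values have no test and describe those libraries. Myc was the highest of the 10 genes in both, at 33.1 FPKM at 0 h and 25.2 FPKM at 4 h (log2 -0.38). In total RNA it was in place 5 at 0 h and in place 7 at 4 h. Mxi1 went from 6.46 to 11.5 FPKM, 1.78-fold, a change above that of 97.7% of 12375 genes. It was the only one of the 10 past 1.5-fold in either direction, a size that 4.83% of genes reached upward and 3.52% downward. Max went from 14.5 to 20.5 FPKM (log2 0.48, above 92.7% of genes), while its total RNA had the interval of -0.30 to 0.36 at 4 h. Mxd3 went from 10.5 to 8.11 FPKM and Mxd4 from 6.61 to 5.46 FPKM (log2 -0.35 and -0.26). Mnt and Mlx differed little between the times, at 7.51 and 7.44 and at 10.6 and 10.6 FPKM. Mga went from 12.5 to 14.9 FPKM, Mxd1 from 1.70 to 1.36 FPKM and Mycn from 0.455 to 0.632 FPKM.

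Set against the mean total RNA of the same time, the genes spread over a wide range. Nascent Myc was 1.36 times its total FPKM at 0 h and 2.33 times at 4 h, ratios above those of 94.97% and 99.3% of genes, where the median gene had 0.429 and 0.455. Mga (0.912 and 0.979) and Mnt (0.956 and 0.835) were above 81.4% to 87.5% of genes. Mxi1 (0.504 and 0.524) and Max (0.351 and 0.491) lay nearer the median. Mxd4 was near the bottom, at 0.152 and 0.176, above only 1.58% and 1.80% of genes, and Mlx (0.259 and 0.269) and Mxd3 (0.283 and 0.283) were also low. The nascent and total files were scaled separately, so only a gene's place among all genes can be read.

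**Figure D5:**
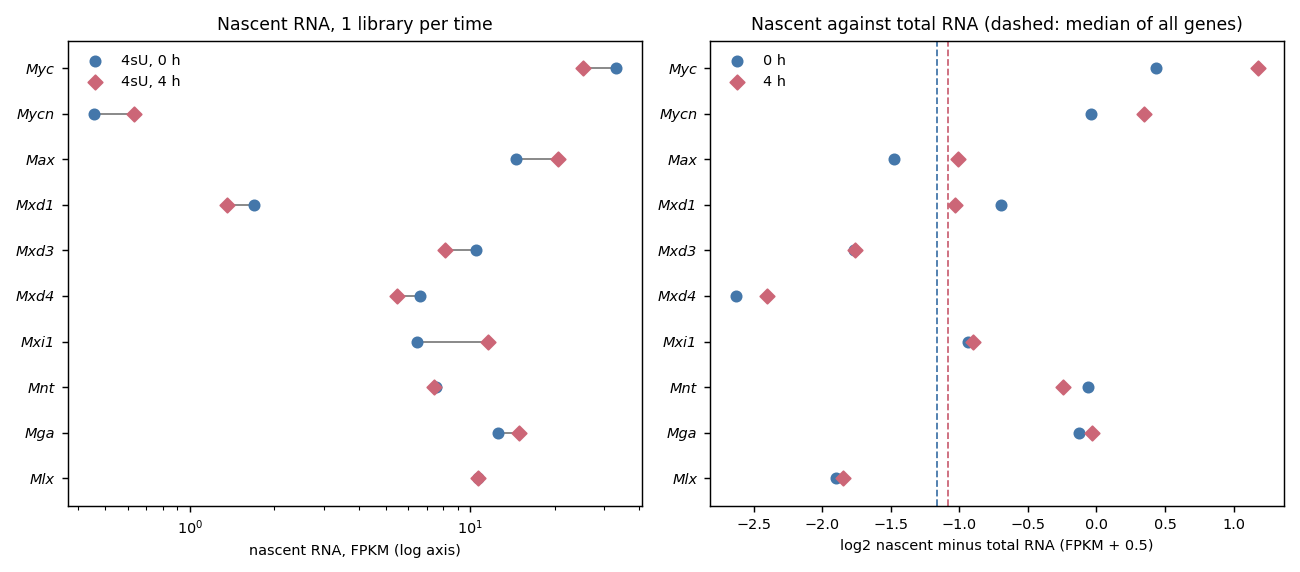
Left, nascent (4sU) FPKM of the 10 network genes on a log axis at 0 h and after 4 h of OHT, 1 library each; right, the log2 difference between nascent and mean total FPKM (both + 0.5) at each time, with dashed lines at the median of all genes. Mxi1 shows the longest step to the right between the times, Myc lies farthest above the dashed lines and Mxd4 farthest below.

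Genes that work with the network were read from lists named for their function, in the spleen comparison first. The lists were chosen with earlier results of these data known, so their counts are a description. Of 17 Myc cofactors (chromatin remodelling and acetylation factors that Myc recruits), 5 rose and 0 fell with the transgene (median log2 0.07), among them Ruvbl1 (1.18) and Ruvbl2 (1.25), the paired helicases of the INO80 and TIP60 complexes, and the acetyltransferase Kat2a (0.84). Of 18 Sin3 and histone deacetylase corepressor genes, 5 rose and 0 fell (median 0.03), with Sap30 (1.48), Fam60a (1.08) and Rbbp7 (0.87). Of 12 genes of the Mga-containing PRC1.6 complex, 6 rose and 0 fell (median 0.43): Tfdp1, a partner of E2F factors, by 2.27, Cbx3 by 1.25 and Pcgf6 by 0.59 were the 3 with the smallest p. The call of Pcgf6 was lost without wild-type replicate 4 (0.54, adjusted p = 0.0606) or transgenic replicate 5 (0.49, adjusted p = 0.0503), with libraries weighted by quality (0.28, adjusted p = 0.0646) and in a fit with the tumours (adjusted p = 0.101). Of 14 genes that control Myc protein stability, 4 rose and 1 fell (median 0.16), with Plk1 (2.42), Aurka (2.13) and the ubiquitin ligase subunit Skp2 (1.15) among those that rose. These shares stand beside 15.7% of all genes called higher and 12.2% lower.

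Of 14 genes known to be induced by Myc, 12 rose and 0 fell in transgenic spleen (median log2 1.29, against -0.05 over all genes). Npm1, a nucleolar chaperone, was at 5601 ± 1515 against 1680 ± 139 FPKM (SD, n = 4 each, log2 1.70), Hspd1, a mitochondrial chaperone, rose by 1.66, and the nucleotide kinase Nme1 by 1.39. Of 6 other dimer partners and E-box binders tested, 0 rose and 1 fell. That was Mycl1, the third Myc family gene, at 6.6, 13.0, 17.4 and 13.4 FPKM in wild type and at 4.4, 5.3, 2.0 and 3.1 FPKM with the transgene (log2 -1.64, limma adjusted p = 0.0137). In a fit with the tumours it did not pass (adjusted p = 0.180). The 4 plasmacytoid dendritic cell markers also had a lower sum in transgenic spleen, 48.4 to 80.3 against 82.1 to 282.2 FPKM. Singly they did not all lie apart, as Siglech overlapped (6.0 to 15.8 against 15.0 to 143.9 FPKM). The part of these markers in the Mycl1 values was not tested. In the tumours Mycl1 was at 1.4, 2.2 and 39.2 FPKM, the last in the replicate that also held Siglech at 2655 FPKM. Bmyc, a shorter relative without the DNA-binding region, was at 45.9, 11.9 and 120 FPKM in the tumours and at 87.6 to 136 FPKM in wild type. Mycl1 in the tumours and Bmyc were singled out after their values were seen.

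In tumours against wild type, 13 of the 14 induced targets rose and 1 fell (median log2 1.52, against 0.05 over all genes), with Srm (spermidine synthase, 2.35), Hspd1 (2.04) and Npm1 (1.87). Cofactors had 4 higher and 3 lower of 17, with Ruvbl1 (1.31) and Ruvbl2 (1.37) higher and the acetyltransferase Ep300 lower (-1.02). The corepressor list had 4 higher and 4 lower of 18, with Sap30 at 2.15, Fam60a at 1.09 and Arid4b at -1.23. PRC1.6 had 2 higher and 3 lower of 12, with Tfdp1 at 2.86, Cbx3 at 1.02 and Ring1 at -0.80. Ring1 lost its call without wild-type replicate 3 (-0.76, adjusted p = 0.0524). Turnover genes had 5 higher and 2 lower of 14, with Plk1 at 2.59, Aurka at 1.93 and Skp2 at 1.49. Usf1, an E-box binder that pairs with Usf2, fell by 0.47, a call lost without wild-type replicate 3, 4 or 6 or tumour replicate 1 (-0.38 to -0.46, adjusted p 0.0803 to 0.0918), without limma's trend and robust settings (adjusted p = 0.0625) and with libraries weighted by quality (-0.42, adjusted p = 0.0781). These stand beside 20.3% of all genes higher and 17.7% lower. Pvt1, the noncoding neighbour of Myc, was at 152, 135 and 115 FPKM in the tumours and at 95.1, 78.5, 83.3 and 59.7 FPKM in wild type. The groups did not overlap and Pvt1 rose (log2 0.77, limma adjusted p = 0.0184), a call lost without tumour replicate 1 (0.67, adjusted p = 0.0535). In transgenic spleen it was at 137, 126, 88 and 74 FPKM, overlapping with wild type (log2 0.40, interval -0.10 to 0.90). Without tumour replicate 3, each of the list genes named here as changed in the tumours held its call. Between tumours and transgenic spleen limma called 0 genes of these lists. At an unadjusted p under 0.05 there were 3 corepressor genes lower of 18, 1 target higher and 1 lower of 14, 1 PRC1.6 gene lower of 12 and 1 partner lower of 6, beside 23.2% of all genes in either direction.

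In the fibroblasts 4.78%, 2.19% and 9.51% of all genes were called at 4, 8 and 16 h, so lists of this size would hold few calls at that share. Of the 14 induced targets, limma called 0 at 4, 8 and 16 h, with medians of 0.02, 0.05 and 0.04, and 1, 3 and 1 had an unadjusted p under 0.05, all higher, beside 16.4%, 12.9% and 23.5% of all genes in either direction. Cdk4, the cyclin D kinase and the target with the highest level, was at 108 ± 9.87 FPKM at 0 h and at 103 ± 9.52, 102 ± 3.74 and 109 ± 20.5 FPKM after OHT (SD, n = 4 each). Cofactors and corepressors had 0 calls of 17 and of 18 at each time, and 0 at an unadjusted p under 0.05. Of 7 other partners and E-box binders 0 were called at each time, and at 16 h 3 were lower at an unadjusted p under 0.05 (median -0.35, against -0.14 over all genes). Pim1, a kinase that stabilises Myc, fell at all 3 times, from 16.9 ± 3.71 to 7.51 ± 1.16, 7.80 ± 1.90 and 6.02 ± 1.84 FPKM (SD, n = 4 each, log2 -1.11, -1.08 and -1.44). At 8 h its call was lost without 0 h replicate 4 (-0.95, adjusted p = 0.0510). Usp36, a nucleolar deubiquitinase of Myc, rose at 8 h from 18.4 ± 1.42 to 30.2 ± 7.07 FPKM (log2 0.67), a call that was lost without any 1 of the 0 h libraries (0.63 to 0.72, adjusted p 0.0744 to 0.118), without 4 h replicate 1 or 2, without 8 h replicate 1, 2 or 3, with no filter (adjusted p = 0.0705) and without limma's trend and robust settings (adjusted p = 0.0555). Rnf2, the ubiquitin ligase of PRC1.6, fell at 16 h from 39.2 ± 4.23 to 26.8 ± 5.44 FPKM (log2 -0.56), which did not pass with median ratio scaling (-0.36, adjusted p = 0.0615) or without 0 h replicate 1 or 3 or 16 h replicate 2 or 4. Pvt1 differed by -0.13, 0.06 and -0.01.

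The genes whose pattern lay closest to that of Myc were taken by the root mean square difference of log2 values after centring each gene. Over the 11 B cell libraries and 11146 genes these were Anln (0.21), Ttk (0.22) and Tyms (0.24), against a spread of 1.44 for Myc itself. Anln rose from 28.0 ± 5.50 FPKM in wild type to 176 ± 92.5 in transgenic spleen and 272 ± 38.4 in tumours (means ± SD, a description with no test). Over the 16 fibroblast libraries and 9343 genes they were Trim16 (0.17), Lrrk2 (0.17) and Mtmr10 (0.18), against 0.55 for Myc. Trim16 stood at 20.3 ± 1.51, 10.1 ± 2.61, 12.3 ± 1.68 and 8.29 ± 1.71 FPKM at 0, 4, 8 and 16 h.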

How the data were processed

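FPKM per gene in 29 libraries were used as deposited. Per the submitters' processing notes, the authors used TopHat, TopHat2 (2.0.8), SAMtools and HTSeq (0.5.3p9) with mm9. The other steps that made the deposited FPKM values are not given in the sources used here. The network genes and the lists were chosen with earlier results of these data known. A gene entered a fit if it reached 1 FPKM in a number of libraries no lower than the size of the smaller group, and was tested on log2(FPKM + 0.5) with limma 3.58.1 in R 4.3.3 (trend and robust, 2-sided). P-values were adjusted by Benjamini-Hochberg over all genes tested and called under 0.05. B cell comparisons were fitted on their own 2 groups and the 16 fibroblast total RNA libraries in 1 fit. Log2 differences on this scale understate the change of low genes, and intervals are 95%. Folds between groups are ratios of mean FPKM and need not match the log2 differences. The 2 nascent libraries were compared by a 1.5-fold limit without a test. All network genes were named, and of each list up to 3 genes with the smallest adjusted p, or the highest gene where none passed. The procedure was tested on simulated data. Pseudocounts, filters, scalings, weights, designs and left-out libraries were varied. No 2 libraries held identical values (0 pairs).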

Additional observations from a re-analysis of the deposited data

Results flagged for a closer look

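Among 60 groups of 4 libraries, 6 held a network gene with 1 library far from the others by Dixon's criterion, which chance meets in about 1 group of 20. Max in transgenic spleen replicate 5 was at 339.9 FPKM and the others at 360.6 to 363.8 FPKM. Mxd4 in transgenic spleen replicate 4 was at 653.4 FPKM, below the others at 938.2 to 968.4 FPKM. At 8 h of OHT, replicate 4 was low for Mxd4 (18.306 FPKM, others 33.98 to 36.67 FPKM) and for Mnt (3.299 FPKM, others 9.998 to 10.86 FPKM). That library had a median of 2.365 FPKM over all genes, and its part in these values was not tested. Mycn in 8 h replicate 1 was at 0.382 FPKM, with the others at 0.448 to 0.451 FPKM. Mga in 0 h replicate 2 was at 11.563 FPKM, with the others at 14.36 to 14.66 FPKM.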

How the results depend on the processing

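Myc kept its direction in every alternative of its 5 calls, and lost 1 call: in tumours against wild type with a replicate block (log2 2.96, adjusted p = 0.11). The number of network genes called moved by over 1.5 times in 6 settings and, with 1 library left out, in 13, of which 11 at 8 h. With a replicate block it was 1 in transgenic against wild-type spleen (4 without) and 0 in tumours against wild type (3 without), where the groups share only 2 numbers each. Over all genes the block gave 575 higher and 265 lower in the spleen comparison (2206 and 1712 without) and 0 in both tumour comparisons. In the fibroblasts it gave 408 and 697 at 4 h (246 and 372 without), 313 and 416 at 8 h (156 and 127) and 349 and 1722 at 16 h (228 and 1002). Weights by library quality gave 3246 and 3413 in the spleen comparison, 1215 and 1145 between tumours and transgenic spleen (523 and 351 without), 812 and 1735 at 4 h and 1074 and 751 at 8 h. Median ratio scaling gave 651 and 382 at 8 h, and quantile normalization 681 and 476. Without replicate 4 of every time, 411 and 865 genes were called at 4 h and 262 and 171 at 8 h. A fit with all 3 B cell groups gave 1555 and 769 in the spleen comparison and 1056 and 1071 between tumours and transgenic spleen. At 8 h the network genes called were 1 with no filter and 1 without replicate 4 of every time (2 as reported). A replicate block with median ratio scaling, chosen after the data were seen, gave 4 at 4 h and 4 at 8 h. Calls over all 12849 genes tested rose with it too, to 1290 higher and 1155 lower at 4 h and to 1121 and 707 at 8 h. Leaving out 1 library gave 2 to 4 network genes in the spleen comparison, 1 to 2 at 8 h and 2 to 4 at 16 h. The cause of these shifts was not tested. No label says that a replicate number of the fibroblasts marks a shared culture or day, and the numbers were not taken as pairs because not every same-number correlation was over 0.1. These ran from 0.02 to 0.64, with medians of 0.18, 0.15, 0.13 and 0.42 for numbers 1 to 4 against -0.06 between different numbers. All 6 for number 4 were 0.32 to 0.64, and 9 of 16 libraries correlated best with their own number, a hint of shared deviations. With the block the network genes called at 4, 8 and 16 h were 2, 3 and 4, and Mxd3 passed at 8 h (-0.47, adjusted p = 0.0347). With block and median ratio scaling Mxd3 passed at 4 h (-0.29, adjusted p = 0.0420) and 8 h (-0.37, adjusted p = 0.0107), as did Mxd4 (-0.40, adjusted p = 0.0381, and -0.41, adjusted p = 0.0419). Of 1588 alternatives for network genes, 64 changed sign, none called either way, with values of -0.22 to 0.51. Depth limits Mycn most, at an estimated 1 to 14 fragments in B cells.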
